A study of Bos taurus with 6 samples.

Results

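Among the genes counted in longissimus thoracis (LT) muscle of Korean cattle steers, 4 related genes, ATCAY, BNIP2, PRUNE2 and ARHGAP1, are described here, out of 22839 different gene symbols. ATCAY was taken because of its large difference between steers with a high and a low number of fine marbling particles (NFMP), and the other 3 because their proteins carry the same kind of domain. ATCAY was thus selected on its counts in this comparison, so its values there are a description and carry no test. The libraries came from 3 steers of the high-NFMP group (steers 3-8, 10-8 and 10-9, aged 32.5, 33.8 and 34.5 months) and 3 steers of the low-NFMP group (steers 3-1, 3-3 and 10-16, aged 37.8, 33.7 and 35.4 months), with 1 library per steer. All were Hanwoo steers, the native Korean breed, raised in the conventional way on commercial feed, with no treatment named. In the study, fine marbling particles are small flecks of intramuscular fat counted on photographs of the ribeye, and the 2 groups were picked for that number.

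The BCH domain (BNIP2 and Cdc42GAP homology) is a protein module that binds small GTPases, their regulators and other BCH domains. It belongs to the wider CRAL-TRIO or Sec14 family, whose other members mostly hold small lipids in a pocket. ATCAY encodes caytaxin, a protein best known from neurons, where it binds kinesin light chain and so links cargo to the kinesin-1 motor, and its loss causes Cayman ataxia in humans. BNIP2 is an adaptor that binds CDC42 and, with the co-receptor CDON, takes part in the differentiation of myoblasts. PRUNE2 is a large protein with a BCH domain near its end, also best known from nervous tissue. ARHGAP1, or Cdc42GAP, is a GTPase-activating protein that switches off CDC42 and RHOA.

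Reads were made from the 3′ ends of polyadenylated RNA, and the values are reads counted per gene in each library, with totals between 16283873 and 17192750. Normalized counts are these counts scaled to the mean library size with the trimmed mean of M-values (TMM) method. Both groups held the defining markers of skeletal muscle. The 10 muscle markers examined (among them ACTA1, CKM, TTN and 3 myosin heavy chains) summed to between 103681 and 112679 CPM (counts scaled to a common library total) in the high-NFMP and between 107189 and 123198 in the low-NFMP libraries. In muscle pieces of this kind, more cells of a type and more RNA per cell cannot be told apart.

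ATCAY had 644, 509 and 346 reads in the high-NFMP steers 3-8, 10-8 and 10-9. In the low-NFMP steers 3-1, 3-3 and 10-16 it had 55, 67 and 41 reads. Every high-NFMP steer lay far above every low-NFMP steer, and after normalization the lowest high-NFMP steer (10-9) still had 5.60 times the value of the highest low-NFMP steer (3-3). The group means were 522 ± 157 normalized counts (SD, n = 3) and 52.0 ± 10.3 (SD, n = 3). The fitted log2 fold change was 3.32 (standard error 0.28), a ratio of 9.99. Of the 15039 rows tested, 4 had a larger log2 fold change in either direction.

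The spread inside each group was small beside this gap. The highest and the lowest steer of a group differed 1.88-fold in the high-NFMP group and 1.50-fold in the low-NFMP group, and the standard deviation was 30.2% and 19.8% of the group mean. Leaving out each steer in turn gave log2 fold changes between 3.12 (without steer 3-8, which had the most ATCAY) and 3.56 (without steer 10-9). The first number of the steer label, whose meaning the labels do not give, splits the steers unevenly. Within the label number 3, ATCAY stood at 653 normalized counts in 1 high-NFMP steer and at a mean of 57.3 in 2 low-NFMP steers, an 11.4-fold ratio. Within the label number 10 the ratio was 11.0-fold, with a mean of 456 in 2 high-NFMP steers and 41.4 in 1 low-NFMP steer. With a single steer on one side of each ratio, these are descriptions. The gap between the groups also left no ratio below 5.60 possible.

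Age differed somewhat between the groups, so the steers closest in age were also set side by side. Steer 10-8 (33.8 months, high NFMP) had 566 normalized counts of ATCAY and steer 3-3 (33.7 months, low NFMP) had 62.0, a ratio of 9.12. With age as a term in the fit the log2 fold change of ATCAY was 3.04. The pair sets 1 steer of each group side by side, and the ages of the others were further apart. Since the lowest high-NFMP steer had 5.60 times the ATCAY of the highest low-NFMP steer, every such pair gives at least that ratio. The ratio of this pair therefore says nothing about age.

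**Figure D1:**
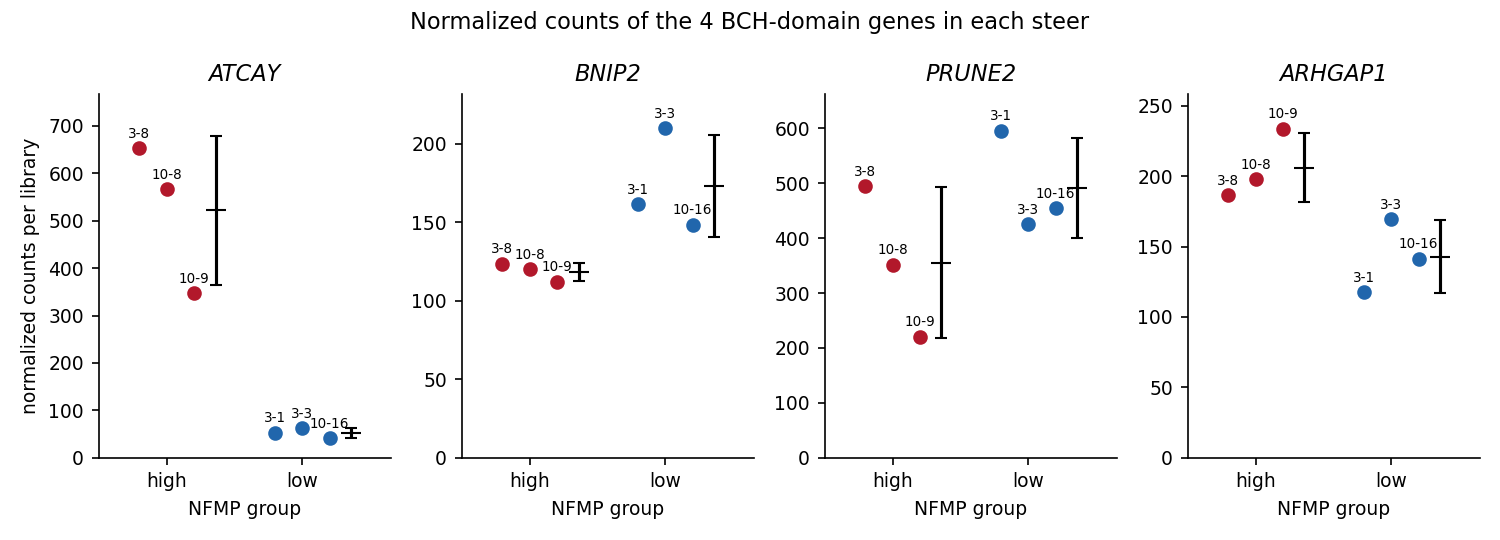
Normalized counts of ATCAY, BNIP2, PRUNE2 and ARHGAP1 (y axis, from 0, a separate scale for each gene) in each high-NFMP (red) and low-NFMP (blue) steer, labelled by steer, with the group mean and SD as black bars (n = 3). ATCAY lies between 347 and 653 in the high-NFMP steers and between 41.4 and 62.0 in the low-NFMP steers, whereas the means of the other 3 genes differ by less than 2-fold.

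The adaptor BNIP2 was fitted lower, not higher, in the high-NFMP group. It had 122, 108 and 112 reads in steers 3-8, 10-8 and 10-9 and 169, 227 and 147 reads in steers 3-1, 3-3 and 10-16, and the groups did not overlap. The means were 119 ± 5.77 and 173 ± 32.4 normalized counts (SD, n = 3 each). The log2 fold change was -0.55 (standard error 0.24, 95% interval -1.06 to -0.034), with an unadjusted p of 0.0383 and an adjusted p of 0.408 (edgeR's quasi-likelihood test, adjusted by Benjamini-Hochberg over all tested rows). BNIP2 passed neither the p and fold change threshold, its fold change being under 2, nor an adjusted p below 0.05. An unadjusted p below 0.05 was found for 11.5% of all tested rows. The high-NFMP steers were close together for BNIP2, the highest exceeding the lowest 1.10-fold.

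The GTPase-activating protein ARHGAP1 was fitted the other way. It had 184, 178 and 233 reads in the high-NFMP group and 123, 183 and 140 in the low-NFMP group, with the steers in the same order. After normalization the groups did not overlap, but only just, with the lowest high-NFMP steer (3-8) at 1.10 times the highest low-NFMP steer (3-3). The means were 206 ± 24.6 and 143 ± 25.9 normalized counts (SD, n = 3 each). The log2 fold change was 0.53 (standard error 0.24, 95% interval 0.025 to 1.03), with an unadjusted p of 0.0408 and an adjusted p of 0.412 by edgeR. ARHGAP1 thus also stayed below both thresholds.

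PRUNE2 was the member whose groups overlapped. It had 488, 316 and 220 reads in the high-NFMP group and 622, 459 and 450 in the low-NFMP group. Steer 3-8 had more normalized PRUNE2 counts (495) than the low-NFMP steers 3-3 (425) and 10-16 (454). The log2 fold change was -0.47 (standard error 0.26, 95% interval -1.03 to 0.10), with an adjusted p of 0.534 by edgeR. The high-NFMP steers spread widely, with a 2.24-fold ratio between steers 3-8 and 10-9. The log2 fold change moved to -0.79 without steer 3-8 (unadjusted p = 0.00974 and adjusted p = 0.206 by edgeR) and to -0.20 without steer 10-9. In the fit without steer 3-8, 2352 of all 15417 rows had an unadjusted p below 0.05. ATCAY, BNIP2 and PRUNE2 shared their highest (3-8) and lowest (10-9) steer within the high-NFMP group. With 3 steers in a group this shared order is a description.

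The rest of the domain family was read from the same fit to see whether any relative moved as ATCAY did. Of the 6 genes listed as carrying a BCH domain, 5 passed the filter on low counts, and ARHGAP8, with at most 5 counts in any library, did not. The remaining relative, BNIPL, encodes a protein similar to that of BNIP2. It had 18, 14 and 12 reads in the high-NFMP and 47, 34 and 31 in the low-NFMP steers, without overlap. Its log2 fold change was -1.23 (standard error 0.43, 95% interval -2.16 to -0.30), with an unadjusted p of 0.0131 and an adjusted p of 0.282 by edgeR. It passed the study's threshold (fold change above 2 at an unadjusted p below 0.05) and was not called after adjustment. BNIPL lay below that threshold without steer 3-1 (log2 fold change -1.04, with an unadjusted p of 0.0652 in edgeR) and with age as a term. Its counts were low, so that single reads weigh on these values.

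Together with 21 further genes whose proteins carry a CRAL-TRIO domain, 20 of 26 listed relatives of ATCAY were tested. Of these, BNIPL alone passed the p and fold change threshold, lower in the high-NFMP group, and none passed it in the direction of ATCAY. Over all 15039 tested rows that threshold was passed by 3.9%, with 2.53% higher and 1.36% lower, so 1 of 20 relatives is close to the background. None of the 20 relatives had an adjusted p below 0.05 by edgeR, a level reached by 0.685% of all tested rows in either direction and by 0.519% in the higher direction. An unadjusted p below 0.05 was found for 3 of them (BNIP2, BNIPL and ARHGAP1) by edgeR and also by DESeq2, beside 11.5% of all tested rows by edgeR. With quantile normalization and limma it was found for 4 of them, beside 1748 of all 15039 rows. The edgeR count was 1 with age or with the label number as a term. With a steer left out it lay between 0 (without steer 3-1) and 6 (without steer 3-8), with 1 without steer 10-9. Over all rows it was 1310 of 15504 without steer 3-1 and 2352 of 15417 without steer 3-8. The groups did not overlap for 5 of the 20 (BNIP2, BNIPL, ARHGAP1, MOSPD2 and NF1), against 17.1% of all tested rows. The median log2 fold change of the 20 relatives was -0.060, beside 0.018 for all tested rows, with 8 fitted higher and 12 fitted lower.

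The relatives with the highest fitted values were counted rarely. RLBP1, a retinoid-binding protein of the eye, had 19, 3 and 20 counts in the high-NFMP and 6, 10 and 4 in the low-NFMP steers, which overlapped, and a log2 fold change of 1.15 (95% interval -0.32 to 2.62, adjusted p = 0.556 by edgeR). Without steer 10-8 its log2 fold change was 1.64 and passed the p and fold change threshold. SEC14L5 was at 17, 17 and 11 against 0, 11 and 15 counts. Among relatives with more counts, TRIO, a guanine exchange factor that activates RAC1 and RHOA, had a log2 fold change of 0.32 (95% interval -0.075 to 0.72), and its paralog KALRN had 0.13 (-0.32 to 0.57). NF1, which encodes the RAS inhibitor neurofibromin, was at 107, 64 and 71 counts against 121, 119 and 126, a log2 fold change of -0.49 (95% interval -1.08 to 0.094). MOSPD2, an anchor of the endoplasmic reticulum membrane, was likewise at -0.49 (95% interval -0.99 to 0.020).

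The highest upper bound of a 95% interval among the 20 tested relatives was the 2.62 of RLBP1. For 10 of them the whole interval lay within a 2-fold change in either direction. For the others a change above 2-fold in at least 1 direction lay within the interval. A test of ATCAY against its relatives was not made, because ATCAY was chosen for its difference. The 4 relatives under the count filter besides ARHGAP8 (CLVS2, TTPA, SEC14L3 and SEC14L4) had between 0 and 14 counts in a library, and SEC14L6 was not analysed here.

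**Figure D2:**
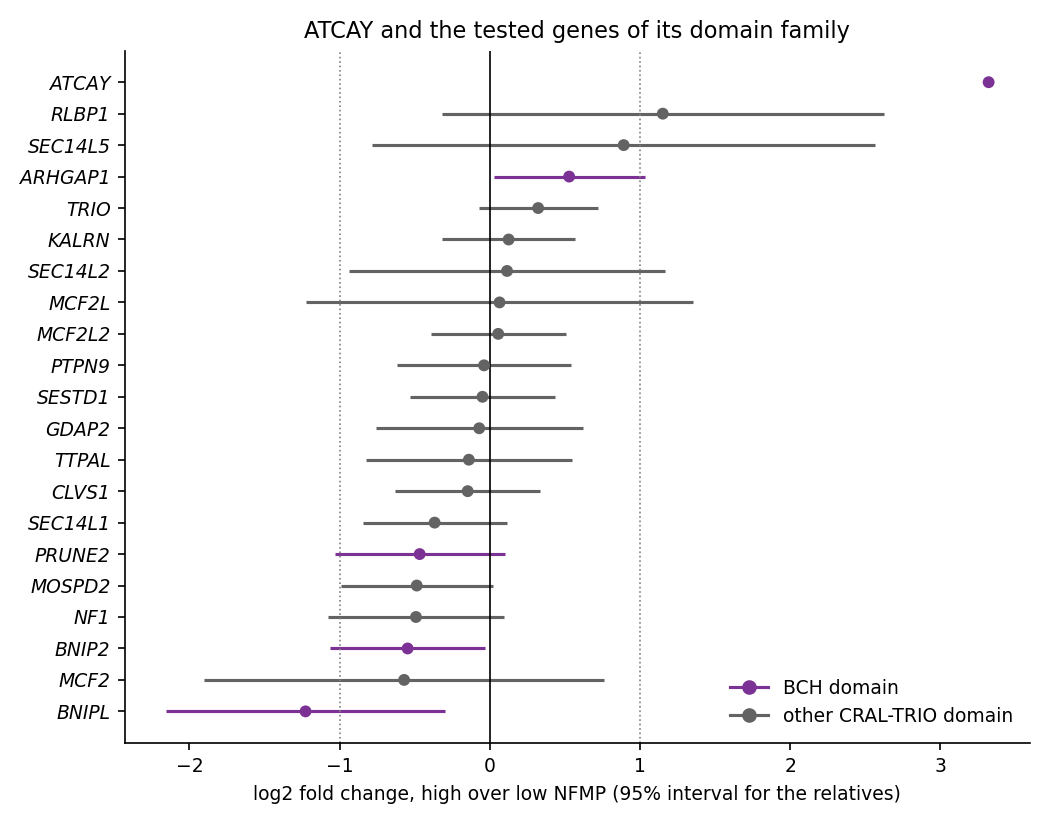
Log2 fold change of high over low NFMP (x axis) for ATCAY, without an interval since it was chosen for this difference, and for its 20 tested relatives with their 95% intervals, ordered by value, with genes of the BCH domain in purple and other CRAL-TRIO genes in grey, and dotted lines at a 2-fold change. ATCAY is at 3.32, the next gene is RLBP1 at 1.15 with a wide interval, and the other BCH genes lie between -1.23 and 0.53.

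The position of ATCAY among its neighbours was read from RefSeq's table of genes on the ARS-UCD2.0 cattle assembly, which is not the assembly named by the study and is used for gene order only. No annotated gene overlaps ATCAY in it. On one side lie the long noncoding RNA gene LOC104969105 and NMRK2, which encodes a nicotinamide riboside kinase of muscle that makes NAD precursors. These 2 genes overlap each other in the table and had nearly the same counts, LOC104969105 exceeding NMRK2 by between 1.10% and 3.29%. Which reads were counted on both is not known here.

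NMRK2 did not follow ATCAY across the steers. It had 4102, 15614 and 10445 reads in steers 3-8, 10-8 and 10-9 of the high-NFMP group and 10018, 7982 and 7080 in the low-NFMP group. Steer 3-8, with the most ATCAY of all 6, had the least NMRK2, and the groups overlapped. The log2 fold change was 0.41 (95% interval -0.60 to 1.42, adjusted p = 0.766 by edgeR), and it lay between -0.089 (without steer 10-8) and 0.79 (without steer 3-8, unadjusted p of 0.00667 and adjusted p of 0.187) with a steer left out. For every 100 counts of NMRK2 there were 15.7 counts of ATCAY in steer 3-8 and about 3 in the other high-NFMP steers (3.26 and 3.31), against 0.549, 0.839 and 0.579 in the low-NFMP steers. ZFR2, the neighbour on the other side, had at most 2 counts in any library. Around the other members, none of the neighbours tested passed the p and fold change threshold, among them GTF2A2 beside BNIP2 (log2 fold change 0.26), GCNT1 beside PRUNE2 (-0.31) and ATG13 beside ARHGAP1 (-0.088). HARBI1, the next gene beyond ATG13, came closest, with 41, 58 and 27 reads against 30, 22 and 19, a log2 fold change of 0.96 (95% interval 0.035 to 1.88), an unadjusted p of 0.0429 and an adjusted p of 0.417 by edgeR.

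**Figure D3:**
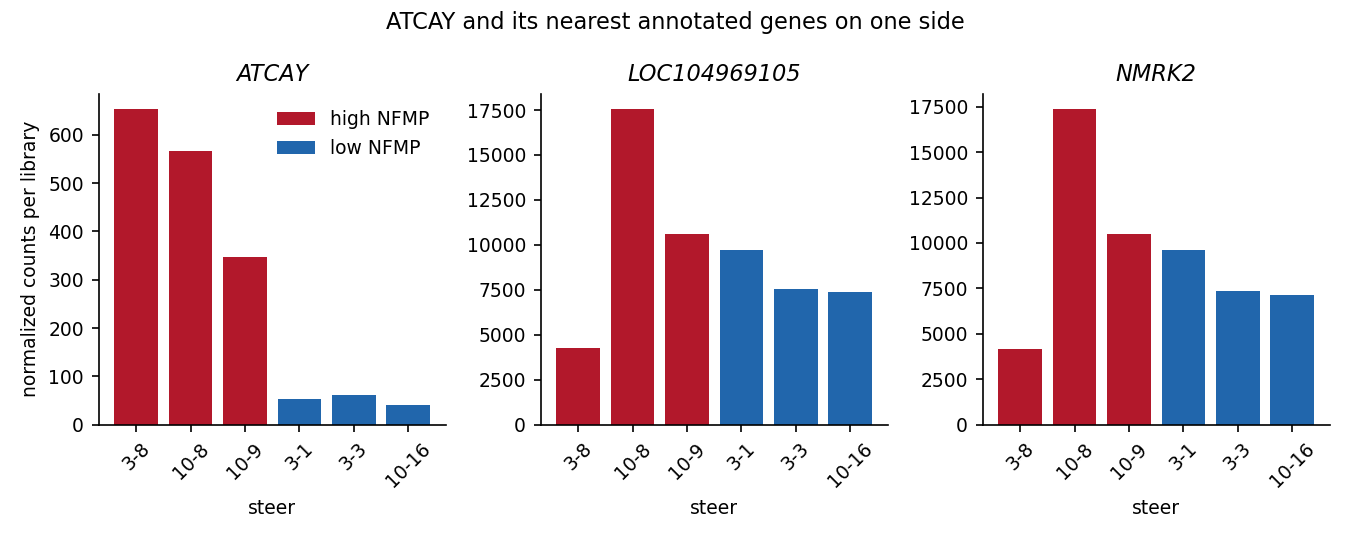
Normalized counts per library (y axis, from 0, a separate scale for each gene) of ATCAY and of its 2 nearest annotated genes on one side, LOC104969105 and NMRK2, in each high-NFMP (red) and low-NFMP (blue) steer. ATCAY is high in all 3 high-NFMP steers, while NMRK2 and LOC104969105 share one pattern in which steer 3-8 is the lowest and steer 10-8 the highest.

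The genes that work with the members were examined next. Of 27 rows for 26 partner genes (kinesin-1 chains, other proteins that bind caytaxin, small GTPases with the exchange factor ARHGEF12, which has 2 rows, and the CDON and p38 pathway of myoblasts), 25 were tested. None passed the p and fold change threshold, against 3.9% of all tested rows. None had an unadjusted p below 0.05 in the reported edgeR fit, beside 11.5% of all tested rows, nor by DESeq2 or by limma. In other edgeR fits such a p was found for 4 of them without steer 3-8, beside 2352 of all 15417 rows, and for 2 without steer 3-3, beside 1431 of 15415. It was found for 1 without steer 10-9, beside 1575 of 15472 rows, and for 1 with library totals, beside 1655 of 15039. None passed the p and fold change threshold in any of these. Their median log2 fold change was -0.093 and the values lay between -0.35 and 0.57. The kinesin light chains that caytaxin binds were fitted at -0.18 (KLC1), 0.39 (KLC2), -0.093 (KLC3) and 0.51 (KLC4), and the heavy chain KIF5B at -0.35.

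CDC42, the GTPase that BNIP2 binds and ARHGAP1 switches off, had 2073, 2098 and 1734 reads in the high-NFMP and 2880, 2687 and 2389 in the low-NFMP steers. The groups did not overlap, as for 2 of the 25 tested partner rows (CDC42 and BOC), beside 17.1% of all tested rows. The log2 fold change of CDC42 was small, -0.31 (95% interval -0.70 to 0.076, adjusted p = 0.548 by edgeR). RHOA was at -0.14 and RAC1 at 0.057 on the log2 scale. CDON, the co-receptor that works with BNIP2, was at 0.24 (95% interval -0.29 to 0.76) and its relative BOC at 0.57 (95% interval -0.13 to 1.26), with 61, 58 and 55 counts against 44, 43 and 40. MAPK14, the p38 kinase of that pathway, was at -0.27 (95% interval -0.68 to 0.13).

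Since ATCAY is known from neurons, markers of nerve were set beside it. Of 12 neuron markers, 7 were under the count filter, and NEFL (2 counts in 1 library), PRPH (4 counts in 1 library), SNAP25 (at most 6) and GAP43 (at most 3) were at or near 0. Also under the filter, NEFM had 1, 15 and 3 counts in the high-NFMP and 9, 12 and 8 in the low-NFMP steers. In the same order, NEFH had 11, 7 and 6 against 15, 1 and 4, and ELAVL4 had 2, 3 and 0 against 3, 7 and 2. The 5 tested neuron markers were all fitted higher in the high-NFMP group, at a median log2 fold change of 0.61. This median is the value of ELAVL3, whose reads, given below, varied widely within both groups. None of the 5 had an unadjusted p below 0.05 by edgeR, beside 11.5% of all tested rows. The summed level of the 12 was 39.5, 36.9 and 33.2 CPM in steers 3-8, 10-8 and 10-9 and 21.1, 34.7 and 20.6 CPM in steers 3-1, 3-3 and 10-16. The groups overlapped, and within each group the sums stood in the same order as ATCAY. Of the tested markers, SYT1 and TUBB3 kept this order in the high-NFMP steers, while ELAVL3, UCHL1 and STMN2 did not. ELAVL3 had 9, 15 and 297 reads in steers 3-8, 10-8 and 10-9, and 35, 177 and 15 in steers 3-1, 3-3 and 10-16. UCHL1 had 361, 485 and 161 reads in the high-NFMP steers. With 3 steers in a group the order of the sums is a description. The 8 Schwann cell markers summed to between 84.2 and 108 against 60.3 and 97.5 CPM, again with steer 3-8 at the top. The 4 that were tested were all fitted higher in the high-NFMP group, at a median log2 fold change of 0.23. MBP, a myelin protein gene, was the 1 of the 4 tested Schwann cell markers with an unadjusted p below 0.05 by edgeR, beside 11.5% of all tested rows. Its log2 fold change was 0.76 (adjusted p = 0.251 by edgeR), and its groups overlapped. The part of nerve in the ATCAY difference was not tested.

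Fat cells were examined in the same way, since the groups differ in marbling. The 8 adipocyte markers summed to between 306 and 727 CPM in the high-NFMP and between 281 and 398 in the low-NFMP libraries. Steer 3-8 was at the top and the sums of each group stood in the order of ATCAY, as for the summed neuron markers. All 8 were fitted higher in the high-NFMP group, at a median log2 fold change of 0.62. An unadjusted p below 0.05 was found for 4 of them by edgeR, beside 11.5% of all tested rows, and none passed the p and fold change threshold. The groups did not overlap for 3 of the 8 (ADIPOQ, CIDEC and CIDEA), beside 17.1% of all tested rows. The part of fat cells in the ATCAY difference was not tested.

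**Figure D4:**
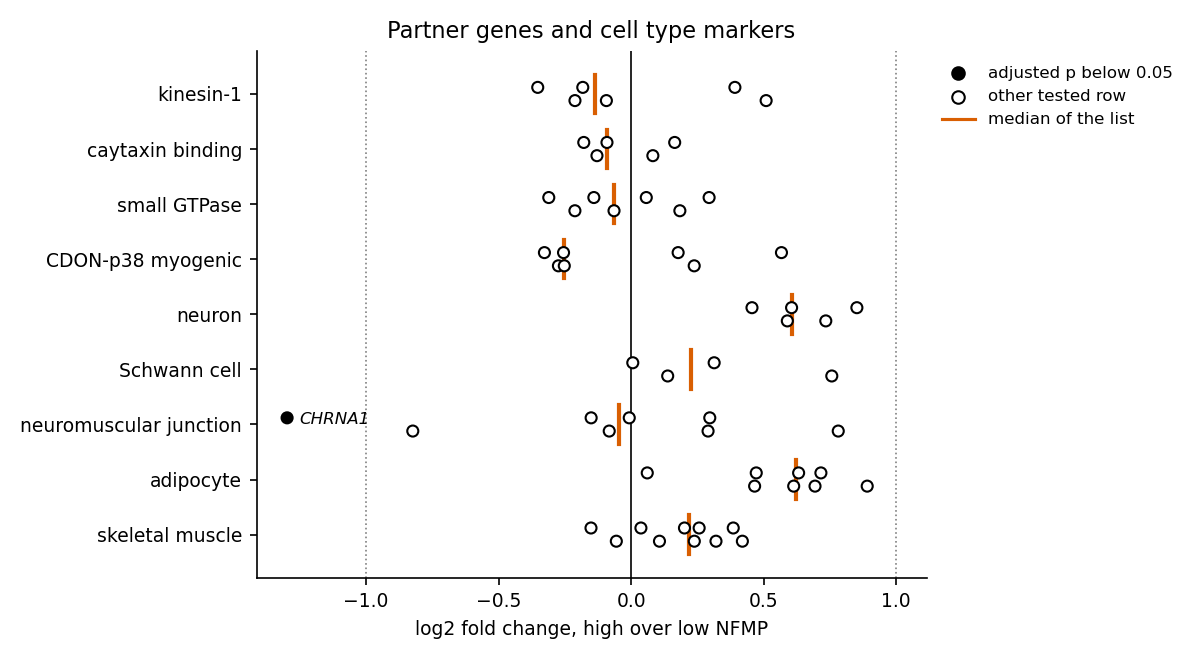
Log2 fold change of high over low NFMP (x axis) of each tested row of 4 partner gene lists and 5 marker lists (y axis), with the median of each list as an orange bar, rows at an adjusted p below 0.05 filled, and dotted lines at a 2-fold change. CHRNA1 at -1.30 is the 1 filled point, and no row reaches the 3.32 of ATCAY, which is outside the range drawn.

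The genes whose pattern was most like that of ATCAY were ranked by Pearson's r over the 6 libraries on log2 normalized CPM, as a description in which the group difference weighs most. Of 15038 other rows, 77 had an r above 0.95 and 54 an r below -0.95. The highest r belonged to AFAP1, an actin filament binding protein gene (r = 0.992), followed by the long noncoding RNA gene LOC112442736 (0.991), HDGFL2 (0.991), CRY2 (0.988) and PMF1 (0.987). Their differences were mostly far smaller than that of ATCAY. AFAP1 had 169, 145 and 150 reads against 118, 116 and 100, a log2 fold change of 0.59, and CRY2, a repressor of the circadian clock, 194, 192 and 189 reads against 110, 120 and 105 (0.89). LOC112442736, with 25, 20 and 15 against 3, 4 and 1 counts, had a fitted log2 fold change of 2.97, and it reached the minimum count in the high-NFMP group alone. The lowest r values were those of LOC112441834 (-0.997), RANBP9 (-0.990) and HIST2H2BF (-0.990). On the same scale the relatives stood at 0.78 (ARHGAP1), -0.45 (PRUNE2) and -0.78 (BNIP2).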

How the data were processed

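The authors made 3′ mRNA libraries with an oligo-dT kit and deposited raw counts, whole numbers of reads for each gene symbol without normalization. Their methods name Tophat2 with HTSeq, and also Bowtie2 with counts of unique and multiple alignments, and the labels name Bowtie2 and bedtools. The sources used here do not say which route led to the deposited counts or whether strand was used, so genes that overlap can share reads. Reads carry no molecular identifiers.

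The 23015 rows were fitted with edgeR 4.0.16 (R 4.3.3). Its default filter (minimum count 10, minimum total 15) kept 15039 rows. After TMM normalization, groups were compared by the quasi-likelihood test with robust dispersions, and p-values were adjusted by Benjamini-Hochberg over all tested rows. Standard errors came from the fold change and the F statistic. The threshold was that of the study's methods, a fold change above 2 at an unadjusted p below 0.05. An exact permutation test of 3 against 3 cannot give a p below 0.1, so p-values rest on the spread estimated across genes. The procedure was tested on simulated data. The members and lists were chosen with earlier results of these data known. Named genes were taken from the members, the listed genes (1 of which is not reported here), neighbours in RefSeq, and the rows most and least correlated with ATCAY. RefSeq held 20066 of 22839 symbols. Alternatives were 2 other count filters, RLE size factors, library totals, DESeq2 1.42.0, quantile normalization with limma 3.58.1 (pseudocount 1), age or label number as a term, and fits that left out 1 steer each.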

Additional observations from a re-analysis of the deposited data

How the results depend on the processing

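The log2 fold change of ATCAY lay between 3.04 and 3.56 over the 14 alternatives, and BNIP2 (between -0.70 and -0.39), PRUNE2 (between -0.79 and -0.20) and ARHGAP1 (between 0.40 and 0.67) kept their direction and stayed below the p and fold change threshold in all 14. The count of relatives besides ATCAY past the threshold, 1 in the reported fit, was 0 with age as a term, and lay between 0 (without steer 3-1) and 2 (without steer 10-8, when RLBP1 joined BNIPL) with a steer left out. No relative had an adjusted p below 0.05 in any of these fits. Among nerve and junction markers 2 passed with age as a term, LRP4 joining CHRNA1. NMRK2, at 0.41 in the reported fit, reversed to -0.033 with the label number as a term, and lay between -0.089 (without steer 10-8) and 0.79 (without steer 3-8) with a steer left out. Of all rows, 586 passed the threshold in the reported fit, 969 without a filter and 364 with at least 10 counts in every library, as the number of rows tested changed. At an adjusted p below 0.05 there were 103 rows, 291 by DESeq2, 240 without a filter, 31 with age as a term and between 28 and 82 with a steer left out. Causes of these shifts were not tested. No paired analysis was possible because the labels match no single steer of one group with one of the other. The first number of the steer label, of unstated meaning and shared by both groups in unequal numbers of steers, was fitted as a block. Depth limits the relatives with few counts.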

Other observations

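The muscle side of the neuromuscular junction was examined because caytaxin is known from neurons. Of its 9 genes, 8 were tested, with 3 fitted higher and 5 lower and a median log2 fold change of -0.045. Past the p and fold change threshold, and at an adjusted p below 0.05, was 1 of them, CHRNA1, beside 3.9% and 0.685% of all tested rows. CHRNA1, the alpha subunit of the muscle acetylcholine receptor, had 476, 732 and 728 reads in steers 3-8, 10-8 and 10-9 of the high-NFMP group and 1719, 2327 and 1172 reads in steers 3-1, 3-3 and 10-16 of the low-NFMP group, and the groups did not overlap. It was lower in the high-NFMP group, by -1.30 on the log2 scale (standard error 0.25), at an adjusted p of 0.0301 by edgeR. The adjusted p lay between 0.000253 and 0.162 over the 14 alternatives and was below 0.05 in 6 of them, while the log2 fold change stayed between -1.46 and -1.07. By edgeR the adjusted p was 0.153 with age as a term and 0.123 with the label number as a term. When 1 steer at a time was left out, the fit without steer 10-16 kept an adjusted p below 0.05 (0.0286 by edgeR), and the largest, 0.162, was without steer 3-3. Within the label number 3 the log2 ratio of the group means was -1.98, and within the label number 10 it was -0.62.

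LRP4, the agrin receptor that organizes these receptors under the nerve ending, had 314, 307 and 277 reads against 499, 744 and 488. Its log2 fold change was -0.82 with a standard error of 0.21, and the adjusted p was 0.0981 by edgeR. Over the 14 alternatives the adjusted p lay between 0.0280 (DESeq2) and 0.400 (without steer 3-3) and was below 0.05 in 2 of them, the other being edgeR without a filter (0.0333). It stayed under a 2-fold change, except with age as a term (-1.04). The other subunits and partners did not pass any threshold, with CHRND at -0.0070, CHRNE at -0.083, MUSK at -0.15, DOK7 at 0.29, RAPSN at 0.30 and COLQ at 0.78 on the log2 scale. Summed over the 9 genes, the level lay between 136 and 186 CPM in the high-NFMP and between 204 and 279 in the low-NFMP libraries, but without CHRNA1 it overlapped, at 107 to 142 CPM against 112 to 141 CPM. The list was one of 5 marker lists examined.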
